A study of Homo sapiens with 4 samples.

Results

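The 7 genes described here, FHIT, WWOX, MACROD2, LRP1B, IMMP2L, AUTS2 and EXT1, are very long genes tied to common fragile sites. Enriched regions of 3 ChIP-seq lists were taken where they overlapped the genes' hg19 spans by at least 1 bp, which gave 88 of 128734 regions: 6 of 11604 for 53BP1, 54 of 62530 for Pol II S5p and 28 of 54600 for Pol II S2p. The data come from MCF10A, an established non-tumour human breast epithelial cell line, grown untreated under normal conditions. Chromatin immunoprecipitation with sequencing (ChIP-seq) was done for 53BP1, which is recruited to chromatin around broken DNA, and for 2 phosphorylated forms of RNA polymerase II (Pol II), with phosphate on serine 5 (S5p) or serine 2 (S2p) of the tail of its largest subunit. Each ChIP had 1 library, and an input library was not analysed here. No difference can therefore be set against a spread between replicates, and no comparison below carries a test.

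Common fragile sites are stretches of chromosome that break or show gaps when DNA replication is slowed. Many lie in very long genes, where replication finishes late and replication origins are sparse, and where transcription of the gene can meet the replication fork. Lesions left there are known to be passed to daughter cells and covered by 53BP1 in nuclear bodies. The S5p form is typical of Pol II that has just begun to transcribe, and the S2p form of Pol II elongating along the gene body. The genes share length and not a pathway. FHIT hydrolyses diadenosine polyphosphates, and WWOX is an oxidoreductase with WW domains that binds the p53-family protein p73. MACROD2 removes ADP-ribose from proteins. IMMP2L is a subunit of a peptidase of the inner mitochondrial membrane, and EXT1 builds heparan sulfate chains. LRP1B is a receptor of the low-density lipoprotein receptor family, and AUTS2 is a nuclear regulator studied mainly in neural development.

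Of the 7 spans, 6 were 899 kb or longer. They measured 2058 kb for MACROD2, 1900.3 kb for LRP1B, 1502 kb for FHIT, 1194 kb for AUTS2, 1113 kb for WWOX and 899 kb for IMMP2L. EXT1 was the shortest at 312 kb. Fragility itself was not measured in these data. EXT1 also held 29 of the 54 S5p regions (53.7%) and 11 of the 28 S2p regions (39.3%), so the main pooled values are given with and without it. In the text, fold is the authors' enrichment over background, and a percentile is the share of regions of the same list with that fold or a lower one. Read depth is unknown, so a missing region was not detected, which does not show absence, and folds are compared only within a list.

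Of the 6 53BP1 regions, 5 were within 5 kb of an annotated start, in 4 of the 7 genes, and the other lay inside MACROD2. The share of the whole 53BP1 list at gene starts was not computed, since no hg19 gene annotation was used, so this position is not shown to be particular to these genes. FHIT held 2 53BP1 regions, and WWOX, MACROD2, IMMP2L and EXT1 held 1 each. LRP1B and AUTS2 held none. All 6 lay on an S5p region (100%, exact Clopper-Pearson 95% interval 54.1 to 100), beside 97.6% of the whole 53BP1 list, so their share is near the background. All 6 also lay on an S2p region, beside 78.9% of the list, a value within the same interval. These and the intervals below cover counting error only, with regions taken as independent.

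**Figure D1:**
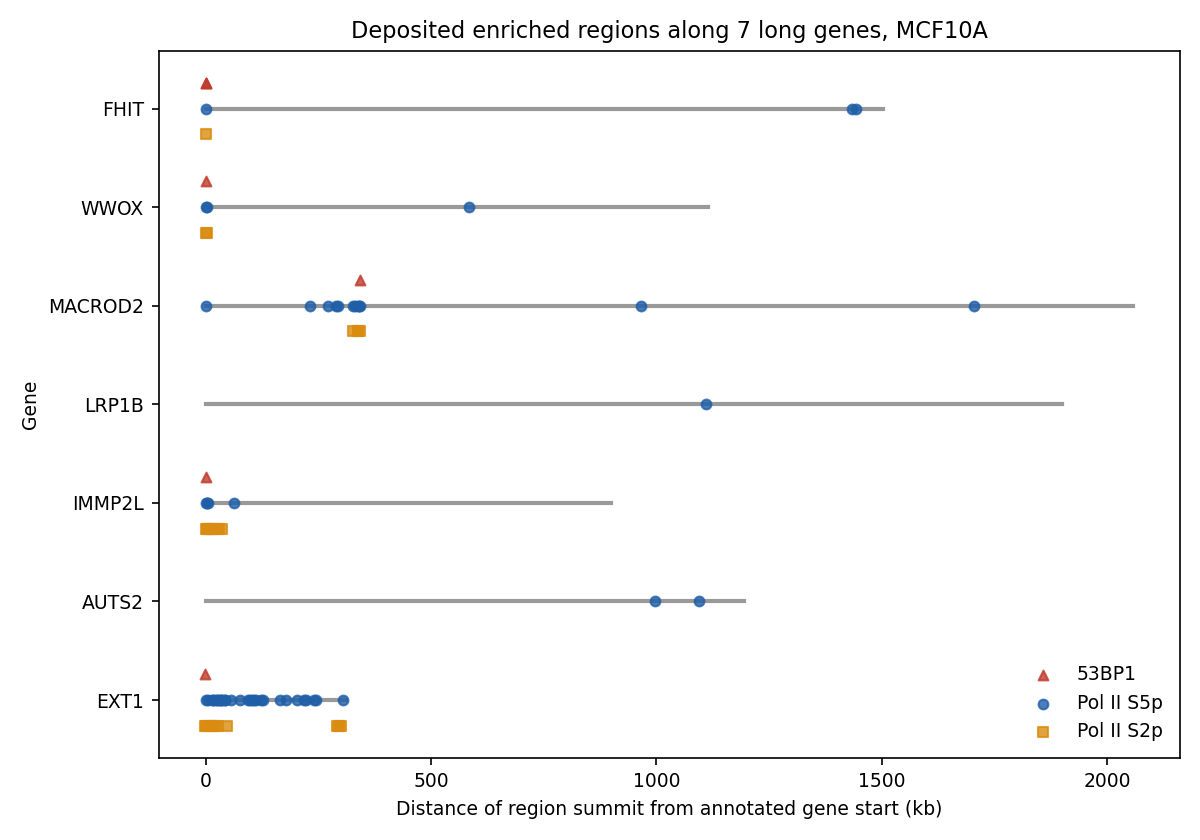
Positions of the 88 deposited regions along the 7 genes, with the distance of each summit from the annotated gene start in kb on the horizontal axis and 1 row per gene. Triangles are 53BP1, circles Pol II S5p and squares Pol II S2p. Grey lines show gene lengths. The 53BP1 regions sit at the start in 4 genes and at 342 kb in MACROD2.

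The genes fell into 3 kinds by the marks within 5 kb of their annotated starts. FHIT, WWOX, IMMP2L and EXT1 carried all 3 marks. MACROD2 carried S5p alone. LRP1B and AUTS2 carried none of the 3.

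At the FHIT start, on chromosome 3, S5p covered 61235459 to 61237731 with a fold of 25.1 (percentile 90.5). S2p covered 61235458 to 61237340 with a fold of 6.95 (percentile 84.7), which was the only S2p region in the gene and the S2p region of largest fold in any of the 7. The 2 Pol II regions thus began 1 bp apart and spanned nearly the same bases. 53BP1 formed 2 separate regions inside that stretch. One, at 61236914 to 61237362 with a fold of 6.04 (percentile 51.3), had its summit 47 bp inside the gene and 6 bp from the S5p summit. The other, at 61235752 to 61236081 with a fold of 4.53 (percentile 25.5), had its summit 1139 bp inside the gene, 231 bp from the S2p summit and 1086 bp from the S5p summit.

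At the WWOX start, on chromosome 16, S5p covered 78132833 to 78134138 with a fold of 28.8 (percentile 92.0). 53BP1 covered 78133029 to 78133753 with a fold of 9.14 (percentile 81.5), and its summit was 34 bp inside the gene and 276 bp from the S5p summit. S2p covered 78133385 to 78133914 with a fold of 4.47 (percentile 68.6). A second, weaker pair of Pol II regions followed, with summits 2668 bp (S5p, fold 2.56) and 2746 bp (S2p, fold 3.70) inside the gene. That pair carried no 53BP1 region.

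At the IMMP2L start, on chromosome 7, S5p covered 111200745 to 111202887 with a fold of 37.7 (percentile 94.8), the largest S5p fold in any of the 7 genes. S2p covered 111200549 to 111202531 with a fold of 6.39 (percentile 82.6). 53BP1 covered 111202167 to 111202690 with a fold of 6.26 (percentile 53.2), which places it near the middle of its list although S5p there was strong. Its summit was 149 bp from the S5p summit and 204 bp from the S2p summit.

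At the EXT1 start, on chromosome 8, S5p covered 119119389 to 119125608, a region of 6220.0 bp with a fold of 34.4 (percentile 93.8). 53BP1 covered 119123921 to 119124633 with a fold of 15.2 (percentile 96.4), the largest 53BP1 fold in the 7 genes. Its summit was 203 bp before the annotated start. The S2p region nearest the start, 119124035 to 119125643, had a fold of 4.50 (percentile 68.8) and its summit lay 1104 bp before the start. A further S2p region of fold 2.89 had its summit 1697 bp inside the gene. EXT1 thus had the highest 53BP1 rank of the 7 genes while its S2p rank was below that of FHIT and IMMP2L.

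At the MACROD2 start, on chromosome 20, S5p covered 13975734 to 13976707 with a fold of 20.6 (percentile 88.6), and neither 53BP1 nor S2p had a region there. This was the only start with an S5p region and no 53BP1 region. Its S5p fold was the lowest of the 5 starts with S5p. In the whole S5p list, 67.1% of the 3127 regions from percentile 85 to 90 held 53BP1, so S5p regions of that rank without 53BP1 were common. At the starts of LRP1B and AUTS2 none of the 3 lists had a region.

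**Figure D2:**
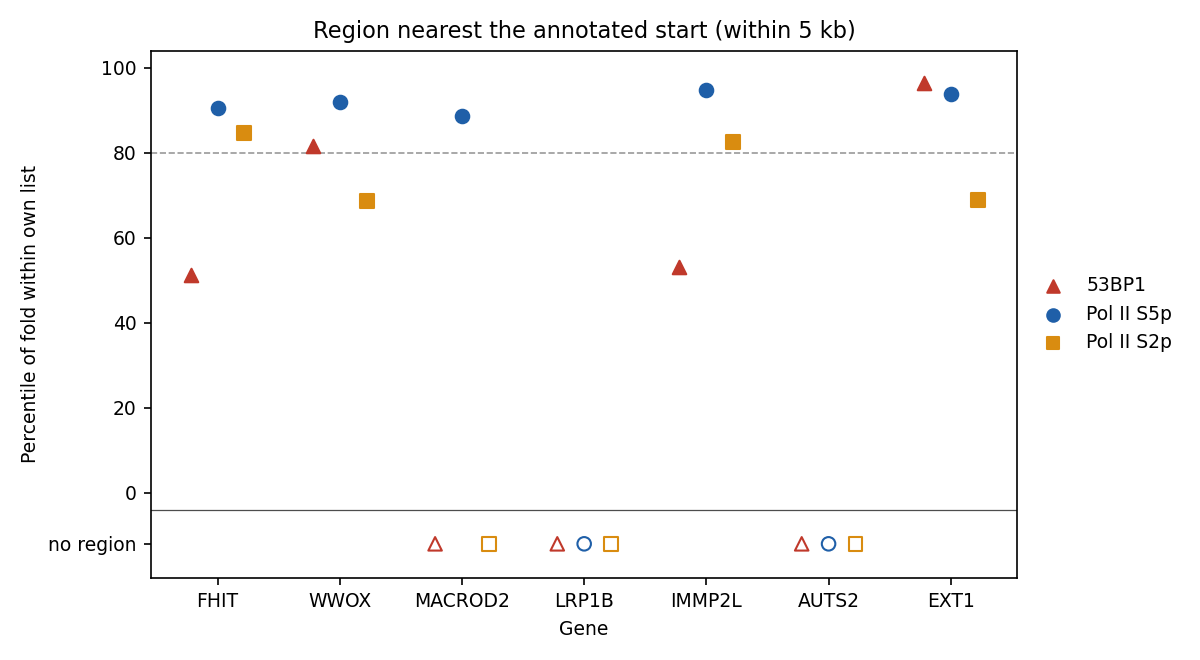
Rank of the region nearest each annotated start within 5 kb, as the percentile of the authors' fold within its own list, for 53BP1 (triangles), Pol II S5p (circles) and Pol II S2p (squares). The dashed line is the 80th percentile and open symbols mark starts with no region. S5p ranks lie between 88.6 and 94.8, while 53BP1 ranks run from 51.3 in FHIT to 96.4 in EXT1.

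The 5 S5p regions nearest a start all stood in the upper 20% of the S5p list, at percentiles 88.6 to 94.8, whereas the 53BP1 regions nearest a start, in 4 of these genes, were spread from percentile 51.3 to 96.4. Over all 54 S5p regions of the genes, 8 were in the upper 20% of the list by fold: 4 in MACROD2 and 1 each in FHIT, WWOX, IMMP2L and EXT1. Of these 8, 5 held 53BP1 (62.5%, 24.5 to 91.5), beside 71.4% of the upper 20% of the whole list. Of the 46 lower regions, 0 held 53BP1, which allows up to 7.71% (exact upper bound), beside 1.15% of the list. All 5 regions from percentile 90 to 95 held 53BP1, beside 92.3% of the list at those ranks. The 2 from percentile 80 to 85, both inside MACROD2, did not, beside 27.4%. The counts are small at each rank and were near the background of S5p regions of that strength.

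The promoter sequences below are shown because 5 of the 6 53BP1 regions lay at gene starts, for the 5 genes with an entry in RefSeq's promoter table. They are the 250 bases before the outermost RefSeq start on GRCh38.p14, 5′ to 3′, and were matched by gene symbol, not placed on the hg19 regions, since no hg19 sequence was used. Capitals mark matches on either strand to a GC box (GGGCGG) and, in FHIT, to a YY1 motif (CCATNTT).
FHIT, chr3:61251453-61251702, minus strand: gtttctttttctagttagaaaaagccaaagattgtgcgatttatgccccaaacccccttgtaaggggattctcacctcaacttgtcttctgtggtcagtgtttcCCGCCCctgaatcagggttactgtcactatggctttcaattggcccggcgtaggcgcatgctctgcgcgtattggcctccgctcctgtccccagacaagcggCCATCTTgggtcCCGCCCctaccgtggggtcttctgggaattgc
WWOX, chr16:78099404-78099653, plus strand: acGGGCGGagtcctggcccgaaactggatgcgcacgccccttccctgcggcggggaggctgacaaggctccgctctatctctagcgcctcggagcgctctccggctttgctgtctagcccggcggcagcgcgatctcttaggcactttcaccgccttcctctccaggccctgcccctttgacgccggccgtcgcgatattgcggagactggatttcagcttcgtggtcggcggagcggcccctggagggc
IMMP2L, chr7:111562493-111562742, minus strand: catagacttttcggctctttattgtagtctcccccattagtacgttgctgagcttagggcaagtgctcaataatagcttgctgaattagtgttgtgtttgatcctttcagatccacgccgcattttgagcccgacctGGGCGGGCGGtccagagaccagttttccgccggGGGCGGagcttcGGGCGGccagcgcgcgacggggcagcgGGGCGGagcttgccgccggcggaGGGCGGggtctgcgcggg
MACROD2, chr20:13995266-13995515, plus strand: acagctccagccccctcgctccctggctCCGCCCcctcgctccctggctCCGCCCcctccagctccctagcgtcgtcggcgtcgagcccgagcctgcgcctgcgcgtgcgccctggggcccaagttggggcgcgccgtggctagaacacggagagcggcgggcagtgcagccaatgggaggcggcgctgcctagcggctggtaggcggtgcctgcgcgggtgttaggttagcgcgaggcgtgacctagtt
AUTS2, chr7:69598225-69598474, plus strand: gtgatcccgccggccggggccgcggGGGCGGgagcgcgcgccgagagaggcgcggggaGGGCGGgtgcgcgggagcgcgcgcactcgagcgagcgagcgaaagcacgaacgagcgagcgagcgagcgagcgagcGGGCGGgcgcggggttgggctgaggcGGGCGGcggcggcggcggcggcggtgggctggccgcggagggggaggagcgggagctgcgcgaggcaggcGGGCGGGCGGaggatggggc

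GC boxes were found in all 5 windows: 6 matches in IMMP2L and in AUTS2, 2 in FHIT and in MACROD2, and 1 in WWOX, where matches may overlap. Of all 35114 RefSeq promoter windows of the same length without unknown bases, 42.6% held one. The YY1 motif, in FHIT alone of the 5, was in 11.6% of all windows. No window held a TATA box (TATAAA, 10.7% of all windows) or a p53 half-site (5.57% of all windows). AUTS2, with no region of any list at its start, had the most CpG dinucleotides, 49 in 250 bases with 82.8% G or C. MACROD2 had 29 CpG and WWOX 27, IMMP2L had 24, and FHIT had 11, beside a median of 11 over all windows. Among these 5 windows the order of CpG counts did not follow the marks found at the starts: the richest window had none, and the poorest, FHIT, had all 3. LRP1B and EXT1 had no window, and a relation between CpG count and the marks was not tested. A match is a description of letters and says nothing about binding.

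Beyond the starts, most of the length of these genes held no region of any list. In FHIT, the longest stretch without any region was 1431 kb, which was 95.2% of the gene, and it ran from 1.68 kb to 1432 kb after the start. IMMP2L had such a stretch of 835 kb (92.9% of the gene). In AUTS2 it was 997 kb (83.5%) and in LRP1B 1110.3 kb (58.4%), and both began at the annotated start. WWOX had 581 kb (52.2%) and MACROD2 739 kb (35.9%). EXT1 differed in scale, with a longest empty stretch of 46.1 kb (14.8%).

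S5p and S2p covered little of the genes. S5p covered 0.700% of the 8.98 Mb of the 7 spans, and 0.262% without EXT1, beside 4.33% of the chromosomes up to their last region. S2p covered 0.298%, and 0.222% without EXT1, beside 5.20%. By gene, S5p cover ran from 0.0400% in LRP1B and 0.0673% in AUTS2, through 0.182% in FHIT, 0.235% in WWOX, 0.390% in IMMP2L and 0.599% in MACROD2, to 12.8% in EXT1. S2p covered none of LRP1B and AUTS2, 0.112% of FHIT, 0.187% of WWOX, 0.359% of MACROD2, 0.900% of IMMP2L and 2.40% of EXT1. EXT1 alone stood above the whole-list value for S5p, and no gene did for S2p. IMMP2L was the only gene with more S2p than S5p cover, which is also the order of the whole lists (5.20% and 4.33%). The depth of each list is unknown, so the 2 covers are not on a common scale.

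**Figure D3:**
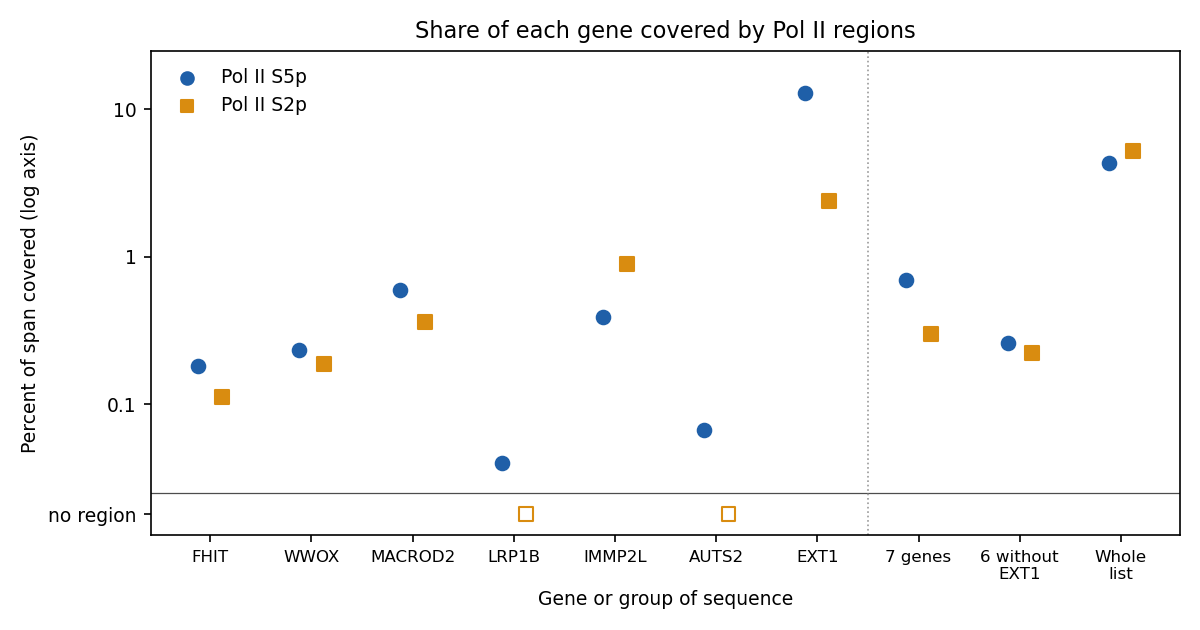
Percent of each span covered by Pol II S5p (circles) and Pol II S2p (squares) regions, on a log axis. Open symbols mark genes with no region. To the right of the dotted line are the 7 genes together, the 6 without EXT1 and the whole lists. EXT1 is at 12.8% for S5p and the other genes are at or below 0.900% for both marks.

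The same was seen in windows of 100 kb counted from each start. Of the 87 whole windows that the genes hold, 16 met an S5p region (18.4%), beside 40.1% of all 30285 windows of the chromosomes. S2p was met by 6 (6.90%), beside 31.4%, and 53BP1 by 5 (5.75%), beside 22.6%. Without EXT1, 84 windows were left, of which 15.5% met S5p, 4.76% S2p and 4.76% 53BP1. The chromosome windows include assembly gaps. The first window of each gene met S5p in 5 of 7 genes, S2p in 4 and 53BP1 in 4. Of the 80 later windows, 11 met S5p, 2 met S2p and 1 met 53BP1. No gene-matched comparison was made, so the low shares describe these spans and are not shown to be particular to them.

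Pol II regions inside the gene were most numerous in IMMP2L, EXT1 and MACROD2, and were arranged differently in each. In IMMP2L, S2p formed a chain of 10 regions that ended 35.6 kb after the start, with summits at 0.337, 3.99, 5.26, 8.20, 9.46, 11.8, 17.0, 24.7, 29.6 and 35.6 kb. After the first region, with a fold of 6.39, the folds of the other 9 lay between 2.57 and 3.60. S5p had 3 regions in the first 40 kb, the later ones with folds of 2.74 and 3.16 at 3.35 and 4.28 kb, and 1 more at 63.3 kb with a fold of 3.09. Of the 10 S2p regions, 2 met S5p, beside 54.9% of the whole S2p list. The median fold of that list was 3.58, and its share was not computed for regions of like fold, so no depletion is shown. No region of any list followed in the remaining 835 kb. The RefSeq table of GRCh38 lists LRRN3, a gene for a leucine-rich repeat membrane protein, inside IMMP2L, and its position in hg19 was not used here.

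In EXT1, S5p had regions from 50 to 250 kb after the start, where S2p had none. The 29 S5p regions included 12 in the first 50 kb, 4 from 50 to 100 kb, 5 from 100 to 150 kb, 7 from 150 to 250 kb and 1 beyond. The 28 after the start region had a median fold of 2.995 and a range of 2.03 to 5.20, all outside the upper 20% of the S5p list, and the median of the whole list was 3.76. The widest was 6808 bp (119112205 to 119119012, fold 3.15), next to the start region. A group of stronger ones lay near 93.4, 99.6 and 107 kb, with folds of 5.20, 5.11 and 5.04. S2p had 8 regions in the first 50 kb, with folds of 2.11 to 4.50, none from 50 to 250 kb, and 3 in the last part, at 291, 297 and 301 kb, with folds of 2.42 to 3.14. The S2p regions thus lay at both ends of the gene with a gap of 243 kb between them. S5p regions lay in this gap up to 245 kb after the start, and no list had a region from there to 291 kb. Of the S5p regions, 5 of 29 met S2p, and all 5 were in the first 50 kb. In the whole S5p list 60.2% met S2p, and outside its upper 20% by fold, where 28 of the 29 lay, 56.2% did.

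S2p was wider just past the annotated end of EXT1 than anywhere inside it. A region of 571 bp (fold 2.44) began 123 bp past the end. A second, beginning 1164 bp past the end, was 12064 bp wide (118798375 to 118810438, fold 5.07, percentile 74.8), and its fold was above that of every S2p region inside the gene. The next were of 977 bp (fold 5.40) at 14.6 kb and of 1796 bp (fold 4.77) at 16.03 kb past the end. S5p had 1 region in this stretch, of 373 bp with a fold of 3.02, and 53BP1 had none. These flanking regions are not members, and the flanks were looked at after the values inside the genes were known.

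**Figure D4:**
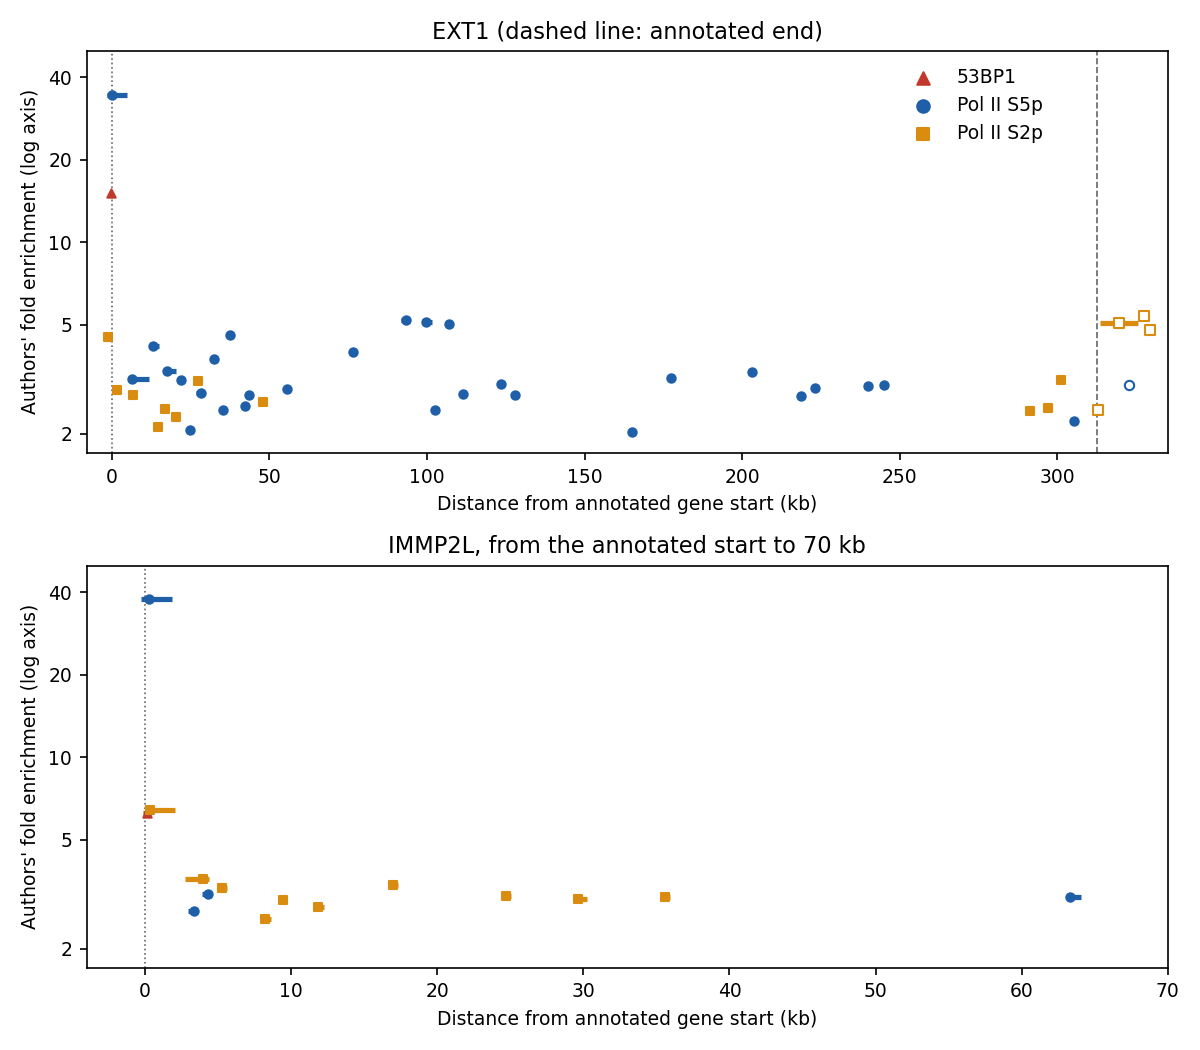
Authors' fold enrichment (log axis) against distance from the annotated start in kb, for EXT1 (upper panel, with the annotated end dashed) and the first 70 kb of IMMP2L (lower panel). Horizontal bars show region extents and filled symbols summits of 53BP1 (triangles), S5p (circles) and S2p (squares); open symbols are centres of regions past the end. In EXT1, separate S5p regions are scattered from the start to 245 kb, while no S2p region was detected from 50 to 250 kb.

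In MACROD2, the marks were concentrated far inside the gene and not at its start. Between 200 and 350 kb after the start lay 9 of its 12 S5p regions, all 4 of its S2p regions and its 53BP1 region. The strongest of these S5p regions was at 14317014 to 14318603 with a fold of 27.5 (percentile 91.5), above the S5p fold of 20.6 at the annotated start. On it lay 53BP1 at 14318034 to 14318348, with a fold of 5.96 (percentile 48.9), and S2p with a fold of 3.79. The 53BP1 summit was 5 bp from the S5p summit and 26 bp from the S2p summit, the closest set of 3 summits in the 7 genes. The other 3 S2p regions lay from there toward the start of MACROD2, and the widest and strongest was the farthest, at 14303416 to 14308271 (4856 bp, fold 6.51, percentile 83.1). All 5 S5p regions and all 4 S2p regions from there to the 53BP1 region met the other mark.

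The RefSeq table of GRCh38 lists FLRT3, which encodes a fibronectin leucine-rich transmembrane protein, inside MACROD2. Its position in hg19 was not used here, so the regions inside MACROD2 cannot be assigned to either gene. Closer to the start, S5p had regions at 272 kb (fold 10.9, percentile 82.9) and 293 kb (fold 9.60, percentile 81.5) without S2p or 53BP1. Weaker S5p regions without S2p or 53BP1 lay at 231 kb (fold 4.75) and 289 kb (fold 2.90), and far beyond at 965 and 1704 kb (folds 3.64 and 3.49).

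**Figure D5:**
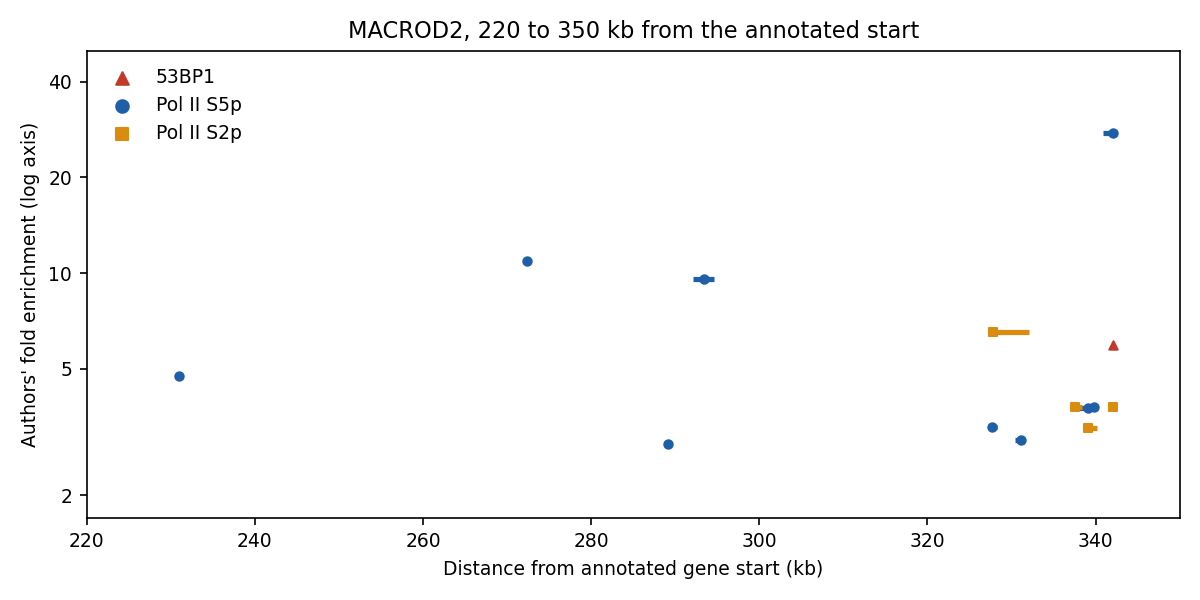
Authors' fold enrichment (log axis) against distance from the annotated start of MACROD2, from 220 to 350 kb. Bars show region extents and symbols summits of 53BP1 (triangle), S5p (circles) and S2p (squares). The 3 summits at 342 kb lie within 26 bp of the 53BP1 summit, and the widest S2p region is at 328 kb.

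Beyond their starts, the other genes had isolated S5p regions only, apart from the second Pol II pair of WWOX. FHIT had them at 1433 and 1443 kb, near its end, with folds of 3.19 and 2.51. WWOX had 1 at 585 kb with a fold of 4.34. LRP1B had its single region of any list at 1111 kb, of 760.0 bp with a fold of 4.83 (percentile 66.2). AUTS2 had regions at 997 and 1095 kb, with folds of 3.15 and 7.77, and the second (percentile 78.7) stood just under the upper 20% of the S5p list. None of these 6 regions met S2p or 53BP1. All 6 were outside the upper 20% of the S5p list by fold, where 56.2% of the list met S2p and 1.15% held 53BP1, so the lack of 53BP1 is the background.

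Pooled over the genes, 16 of 54 S5p regions met S2p (29.6%, 17.98 to 43.6), beside 60.2% of the whole list. Within the upper 20% by fold the counts were 5 of 8 (62.5%, 24.5 to 91.5), beside 76.5%, and among the lower regions 11 of 46 (23.9%, 12.6 to 38.8), beside 56.2%. EXT1 contributed 24 of the S5p regions without S2p, and without EXT1 the share was 44.0%. No interval or split by fold was computed without EXT1, so the size of the pooled difference depends on that 1 gene. From the other side, 15 of 28 S2p regions met S5p (53.6%, 33.9 to 72.5), beside 54.9%, which is near the background. Of the S2p regions 5 held 53BP1 (17.9%, 6.06 to 36.9), beside 13.9%. Of the S5p regions 5 held 53BP1 (9.26%, 3.08 to 20.3), beside 15.2%. Without EXT1 the count was 4 of 25, which turns the share from below that background to just above it. Regions of 1 gene share a chromosome and a transcript, so they are not independent and these shares are not tests.

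Position along the gene was also compared in 10 equal parts from start to end. The first part of the 7 genes held 44.3% of their S5p bases, 61.6% of their S2p bases and 83.01% of their 53BP1 bases. The second part held 24.5% of S5p, 30.0% of S2p and 17.0% of 53BP1 bases, and MACROD2 supplied all of the 53BP1 among these. For S5p this order turned round without EXT1, with 31.98% in the first part and 47.2% in the second, whereas S2p had 61.6% and 38.4% and 53BP1 81.6% and 18.4%. Without EXT1, MACROD2 supplied all bases of each list in the second part, so the turn in S5p rests on that 1 gene. S2p had 0% from the third to the ninth part, while S5p had between 1.18% and 11.4% in each of these. Without EXT1, S5p had 0% in parts 3, 4, 7 and 8, and 2.89%, 8.10% and 3.26% in parts 5, 6 and 9, so S5p in each of these parts held only with EXT1. The last part held 3.77% of S5p and 8.45% of S2p bases, and all of that S2p was in EXT1. The parts differ in length between genes, since each span was divided by its own length.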

How the data were processed

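ChIP-seq of 53BP1, Pol II S5p and Pol II S2p in MCF10A cells gave 1 deposited list of enriched regions per ChIP. Coordinates are in hg19, and bcl2fastq 2.20.0.422 made the reads, both per the submitters' processing notes. Which aligner, peak caller and control the authors used is not given in the sources used here. As deposited by the authors, each region has a fold enrichment (a ratio over background), a −log10 p-value, a −log10 q-value, a score (in 100% of rows within 1 of the −log10 q-value times 10) and a summit offset. Lower depth gives fewer regions, and depth is unknown. Only chromosomes 1 to 22 and X were used (1, 2 and 1 rows of 53BP1, S5p and S2p lay elsewhere).

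Gene spans in hg19 were given with the choice of 8 genes, and 1 of them is not reported here. Starts follow gene orientation, taken from RefSeq's promoter table for 5 genes and from general knowledge for LRP1B and EXT1. Positions are 1-based. Regions named are those nearest each start, of largest fold and widest per gene and list, plus others chosen after their values were seen. The genes and comparisons were chosen with earlier results of these data known. Overlap is at least 1 bp, and the overlap count was tested on simulated data. Alternatives were a −log10 q-value of 5 or more, the upper 50% by fold, summits in the span, spans widened by 10 kb, 50% coverage, start windows of 1 or 20 kb and, added after seeing the data, leaving out EXT1. Promoter windows are RefSeq, GRCh38.p14. Computation used Python 3.11.15, scipy 1.17.1, pandas 2.3.3 and numpy 2.4.6, and plots used matplotlib 3.10.9.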

Additional observations from a re-analysis of the deposited data

How the results depend on the processing

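The number of genes with all 3 marks at the start was 4 under each of its 4 alternatives, and 4 or 5 genes held 53BP1. Region counts depended on the limit for weak regions. With a −log10 q-value of 5 or more, 30 S5p and 8 S2p regions were left. With the upper 50% of each list by fold, 19 S5p and 9 S2p regions were left, and 21.1% of these S5p regions held 53BP1. Without EXT1 there were 25 S5p and 17 S2p regions, and 44.0% of these S5p regions met S2p. S5p cover was 0.535% at the q-value limit, 0.334% for the upper 50%, 0.726% with spans widened by 10 kb and 0.262% without EXT1. S2p cover was 0.134%, 0.152%, 0.4215% and 0.222% under the same settings. The S2p bases in the first of 10 equal parts of the genes made up 48.1% at the q-value limit and 54.4% for the upper 50%. With 50% of the S5p region to be covered, 1.85% held 53BP1, since 53BP1 regions are narrower than the S5p regions under them. At the q-value limit 87.5% of S2p regions met S5p, and the cause was not tested. Whole-list shares under the q-value, fold and 50% coverage settings were not set beside these values, so no difference from the background is shown. No paired analysis was possible because every factor is represented by 1 library. Since depth is unknown, a missing region was only not detected, and with 6 53BP1 regions in all, a change of 1 region moves every share of 53BP1.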

Other observations

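Outside the spans, 5 of the 7 genes had no region of any list within 50 kb of either end: FHIT, WWOX, MACROD2, LRP1B and IMMP2L. AUTS2 had 1, an S2p region of 492 bp on chromosome 7 at 70262366 to 70262857, 4481 bp past its annotated end, with a fold of 3.51 (percentile 48.3). The other 5 flanking regions were those past the end of EXT1.

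The 53BP1 regions of the 7 genes were 315 to 725 bp wide, with a median of 487 bp, beside 561 bp over the whole 53BP1 list. Their median fold was 6.15, beside 6.02, and 2 of the 6, at the starts of WWOX and EXT1, were above its 80th percentile.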
